A study of Mus musculus with 12 samples.

Results

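The 44 genes described here encode the kinases, cyclins, checkpoint proteins, kinetochore subunits, motors and condensins of mitosis. They were chosen by name from knowledge of their roles, with earlier results of these data known. All 44 were found among the 22619 gene symbols of the series. The libraries were Smart-seq2 RNA-seq of mouse material, a method that copies polyadenylated RNA from very small inputs, and the series title speaks of single cells. Embryos of the strain C57BL/6 gave 3 libraries of Dcaf11 knockouts whose titles hold the word arrest (KO arrest), 3 libraries of Dcaf11 knockouts without that word (KO embryo) and 2 wild-type libraries (control embryo). Embryonic stem cells (ESC) of the strain 129Sv gave 2 Dcaf11 knockdown libraries (KD ESC) and 2 wild-type libraries (control ESC). The product of Dcaf11 binds substrates for a ubiquitin ligase built on CUL4. The labels give no embryonic stage, sex or number of cells per library, nor how the knockdown was made or which part of the gene was deleted. No label states that the replicates are different embryos or cultures. The p-values therefore rest on how far these libraries vary, and that variation may be technical.

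Entry into mitosis is driven by CDK1 bound to a cyclin B. The WEE kinases hold this complex off and the CDC25 phosphatases switch it on. Once the kinetochores are attached and the spindle checkpoint is satisfied, the anaphase-promoting complex (APC/C) with its activator CDC20 marks cyclin B and securin for destruction, and FZR1 takes over as activator at mitotic exit. Oocytes and early embryos use their own versions of some of these parts, among them WEE2, the APC/C inhibitor FBXO43 (also called EMI2) and the kinase AURKC.

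Levels are given in FPKM, a fragment count scaled to gene length and library size. Dcaf11 itself stood at 4.43, 0.422 and 6.02 FPKM in KO arrest libraries and 3.99, 2.84 and 0.184 FPKM in KO embryo libraries, against 2.82 and 14.3 FPKM in control embryos. The ranges overlapped, so its level did not separate knockout from control embryos. In ESC it stood at 1.69 and 1.83 FPKM after knockdown, against 6.48 and 4.52 FPKM in controls (adjusted p = 0.0521, limma). The 2 control embryo libraries correlated less well with each other (r = 0.812 on log2 values across genes) than libraries within the KO groups did (0.915 to 0.938), and control embryo 1 had 6573 genes at 1 FPKM or more, against 10291 in control embryo 2. The relative depth, as coverage per FPKM, was 0.373 to 0.659 in KO arrest, 0.585 to 1.32 in KO embryo and 1.22 to 2.01 in control embryo libraries.

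Together the 44 genes summed to 2887 to 4228 FPKM in KO arrest libraries, 2553 to 3330 FPKM in KO embryo libraries and 2122 and 2615 FPKM in control embryos. The ESC sums were lower, at 1081 and 1105 FPKM after knockdown and 1130 and 1107 FPKM in controls. Library totals differed, so the sums were also taken as a percentage of all named FPKM in the library. They were 0.6003, 0.7572 and 0.7591 in KO arrest, 0.7111 to 0.8471 in KO embryo and 0.6259 and 0.6651 in control embryo libraries. On this scale KO arrest overlapped control embryos, and every KO embryo library lay above the control embryos. ESC libraries stood at 0.3018 to 0.3102. The leading gene differed by group on the FPKM scale. Cyclin B1 (Ccnb1) led in KO arrest with a mean of 1017 FPKM, the NDC80 complex subunit Spc25 led in KO embryo with 364 FPKM, and the checkpoint protein gene Mad2l1 led in control embryos with 590.4 FPKM. In control ESC, Ccnb1 led with only 80.9 FPKM.

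The question of the first comparison was how knockout embryos titled as arrested differed from wild-type embryos. Calls rest on limma with Benjamini-Hochberg adjustment over all genes tested, at a threshold of 0.05. Of the 44 genes, 8 were called higher in KO arrest, against 16.4% of all 11795 genes, and 3 were called lower, against 8.87% of all genes. Both shares lay near the background (18.2% and 6.82% of the members), and the median log2 fold change was 0.35 for the members and 0.45 for all genes.

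Ccnb1, the gene for cyclin B1, was among the genes called higher. It had 654, 1051 and 1347 FPKM in KO arrest libraries, against 54.2 and 177 FPKM in control embryos. No KO arrest library overlapped the controls, and the means differed 8.79-fold (log2 difference 3.30 ± 0.51 SE, adjusted p = 0.00157, limma). Its partner kinase gene Cdk1 had 51.6, 71.3 and 88.0 FPKM in KO arrest, against 16.1 and 19.3 FPKM in control embryos, a 3.97-fold difference (log2 1.90 ± 0.41, adjusted p = 0.0083, limma). The other mitotic cyclins did not pass the test. Cyclin B2 (Ccnb2) had 12.3, 32.8 and 42.0 FPKM in KO arrest, against 14.4 and 17.9 FPKM in control embryos, and cyclin A2 (Ccna2) had 123 to 146 FPKM in KO arrest, against 84.2 and 100.5 FPKM in control embryos.

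Cdc20, which encodes the APC/C activator of metaphase, rose as well. It had 108, 140.0 and 138 FPKM in KO arrest, against 13.9 and 34.3 FPKM in control embryos (5.34-fold, log2 2.49 ± 0.46, adjusted p = 0.00373, limma). The lowest arrest library exceeded the highest control. Fbxo43, the gene for the egg-type APC/C inhibitor, fell to 2.14, 1.06 and 0.387 FPKM in KO arrest, against 13.6 and 41.6 FPKM in control embryos (log2 -3.59 ± 0.65, adjusted p = 0.00345, limma). The groups did not overlap, and the control mean was 23.1 times the KO arrest mean. Fzr1 had 6.85, 3.83 and 8.25 FPKM in KO arrest against 8.29 and 25.7 FPKM in control embryos and was not called (log2 -1.16 ± 0.59, adjusted p = 0.175, limma). The securin gene Pttg1, at 129, 265 and 264 FPKM in KO arrest against 155 and 234 FPKM in control embryos, overlapped between groups, as did the separase gene Espl1.

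**Figure D1:**
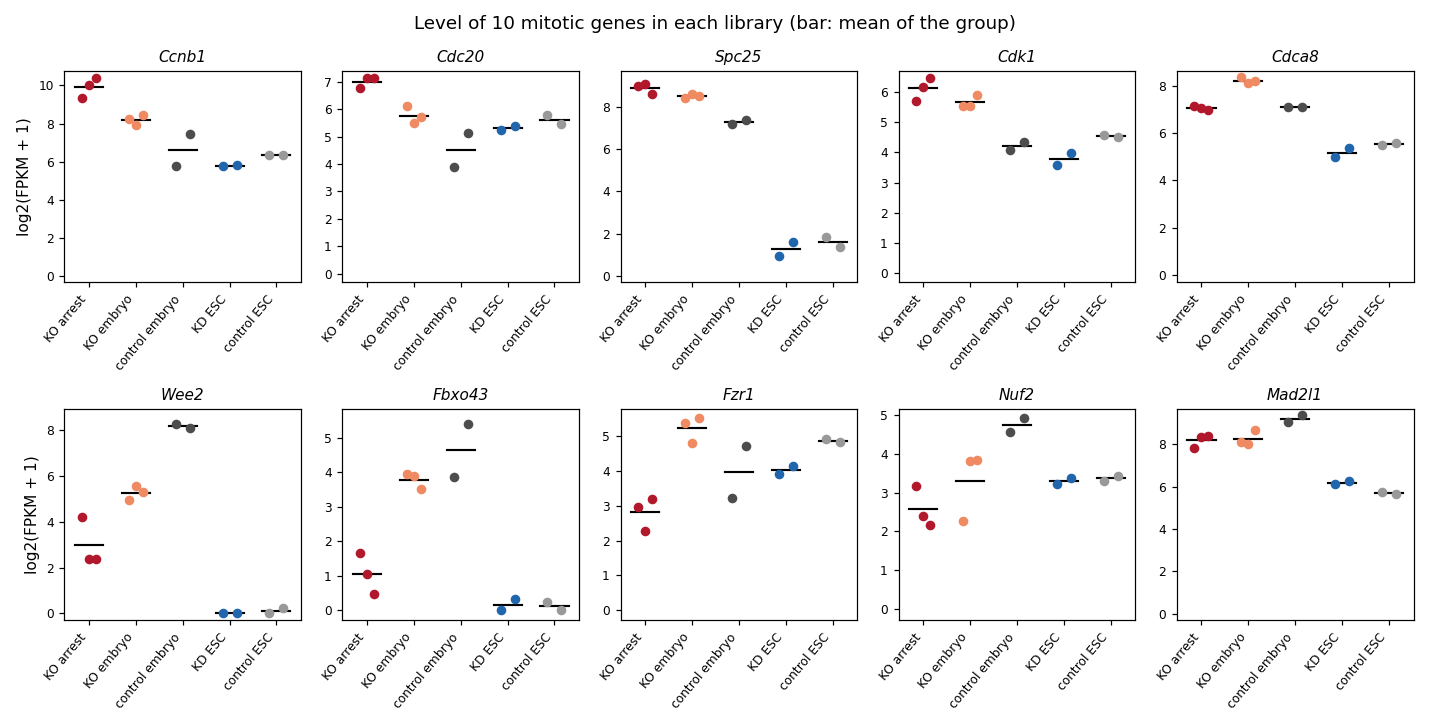
Level of 10 of the genes in each library, as log2(FPKM + 1), with 1 point per library and a bar at the group mean. Ccnb1 and Cdc20 stand highest in KO arrest. Among the embryo groups Wee2 is lowest in KO arrest, higher in KO embryo and highest in control embryo. Wee2 and Fbxo43 are at or near 0 in ESC, and Spc25 is at most 2.57 FPKM there.

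The deepest fall was in Wee2, the kinase gene used by oocytes and eggs to hold CDK1 inactive. It had 17.7, 4.17 and 4.15 FPKM in KO arrest, against 308 and 270.4 FPKM in control embryos, and the control mean was 33.4 times the KO arrest mean (log2 -5.19 ± 0.59, adjusted p = 0.000379, limma). The somatic kinase gene Wee1 was lower in every KO arrest library but did not pass the test, at 9.36, 5.22 and 5.54 FPKM in KO arrest against 26.6 and 13.4 FPKM in control embryos (adjusted p = 0.09, limma). The phosphatase genes overlapped. Cdc25b had 3.72, 3.29 and 1.88 FPKM in KO arrest against 0.543 and 3.91 FPKM in control embryos, and Cdc25c had 4.87, 9.43 and 18.3 FPKM in KO arrest against 19.6 and 14.5 FPKM in control embryos.

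At the centromere and kinetochore, 2 of 7 genes were higher and 1 was lower. Spc25, a subunit of the microtubule-binding NDC80 complex, had 506, 533 and 394 FPKM in KO arrest, against 147 and 167 FPKM in control embryos (log2 1.59 ± 0.32, adjusted p = 0.00568, limma). Nuf2, another subunit of that complex, moved the other way, with 7.93, 4.23 and 3.49 FPKM in KO arrest against 22.8 and 29.7 FPKM in control embryos (log2 -2.18 ± 0.64, adjusted p = 0.0308, limma). Subunits of 1 complex thus moved in opposite directions, while Ndc80 itself had 11.8 to 19.4 FPKM in KO arrest and 13.6 and 18.9 FPKM in control embryos. Cenpa, the centromeric histone H3, had 154, 346 and 352 FPKM in KO arrest, against 81.4 and 122 FPKM in control embryos (log2 1.41 ± 0.46, adjusted p = 0.0447, limma). Cenpe, Cenpf and Spc24 did not pass the test.

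Among the checkpoint genes, only Bub3, whose product carries BUB1 and BUBR1 to kinetochores, was called, at 38.5, 39.5 and 59.1 FPKM in KO arrest against 5.03 and 16.9 FPKM in control embryos (log2 2.14 ± 0.57, adjusted p = 0.0201, limma). Mad2l1, which encodes the checkpoint's APC/C-binding inhibitor, was lower in every KO arrest library, at 222, 319.8 and 334 FPKM against 528 and 653 FPKM in control embryos, with an adjusted p of 0.0578 (limma). Bub1, Bub1b, Mad1l1 and Ttk were not called, and their group means were at most 8.07 FPKM in KO arrest, KO embryo and control embryo libraries. Aurka, the spindle pole kinase, had 48.4, 96.8 and 122 FPKM in KO arrest, against 35.7 and 19.5 FPKM in control embryos (log2 1.62 ± 0.50, adjusted p = 0.0384, limma), and Smc2, a core condensin subunit, had 34.2, 28.5 and 18.8 FPKM in KO arrest against 0.540 and 6.40 FPKM in control embryos (log2 3.02 ± 0.72, adjusted p = 0.0126, limma). Neither group overlapped its control. No gene of the chromosomal passenger complex (Aurkb, Aurkc, Incenp, Birc5, Cdca8) or of the motors and midzone proteins (Kif11, Kif20a, Kif23, Kif2c, Prc1, Ect2) was called, nor were Plk1, Tpx2, Top2a, Smc4 and Ncaph.

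The scaling of the libraries bore on this count. The median log2 difference of all genes was 0.45 as deposited and moved by -0.35 with TPM, -0.42 with median-of-ratios scaling and -0.38 with quantile normalization. Under these the members split into 5 higher and 4 lower, 3 higher and 7 lower, and 5 higher and 7 lower. In the deposited FPKM 8 were higher and 3 lower. Of all genes, 1294 were called higher and 1294 lower with TPM (13242 tested). The numbers were 1322 and 1609 of 11503 with median-of-ratios scaling, and 1461 and 1528 of 11795 with quantile normalization. In the deposited FPKM they were 1930 and 1046 of 11795. Ccnb1, Cdc20, Wee2 and Fbxo43 were called in the same direction under all 10 other settings and with each of the 8 libraries left out. The sizes moved with the control libraries. Without control embryo 1 and without control embryo 2, the log2 difference was 2.45 and 4.14 for Ccnb1, 1.86 and 3.11 for Cdc20, -4.36 and -2.82 for Fbxo43, 1.89 and 4.15 for Smc2, and 1.36 and 2.92 for Bub3. Cdk1 was lost only with median-of-ratios scaling (adjusted p = 0.0861, limma), and Smc2 only without control embryo 1 (adjusted p = 0.0683). Spc25 was lost with median-of-ratios scaling and quantile normalization. Bub3 and Nuf2 were lost under 5 and 7 of the 18 alternatives, and Aurka and Cenpa under 13 each. Other members gained a call. Mad2l1 was called lower with TPM, median-of-ratios scaling, quantile normalization and a filter of at least 5 FPKM. Wee1, Ttk and Fzr1 were called lower with median-of-ratios scaling and quantile normalization. When all 12 libraries were fitted together, Wee1, Ttk and Mad2l1 were called lower and Top2a higher. Without KO arrest 3, 7 members were called, and 2027 of all 11444 genes.

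Promoters of many mitotic genes carry shared motifs. To show them for genes that moved here, the 150 bases before the start are given for 4 genes that rose and for Wee2, which fell. The sequences are from the RefSeq promoter table, build GRCm38.p6, on the gene's strand, at chr13:100786487-100786636 (minus) for Ccnb1, chr10:69352913-69353062 (minus) for Cdk1, chr4:118437344-118437493 (minus) for Cdc20, chr5:30666736-30666885 (plus) for Cenpa and chr6:40442713-40442862 (plus) for Wee2. Capitals mark the CCAAT box (CCAAT, or ATTGG where it lies on the other strand) and the cell cycle homology region (CHR, TTTGAA or TTCGAA, searched on both strands).
Ccnb1: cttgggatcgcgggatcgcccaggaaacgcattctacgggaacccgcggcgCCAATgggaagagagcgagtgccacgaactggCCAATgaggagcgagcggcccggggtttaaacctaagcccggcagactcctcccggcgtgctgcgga
Cdk1: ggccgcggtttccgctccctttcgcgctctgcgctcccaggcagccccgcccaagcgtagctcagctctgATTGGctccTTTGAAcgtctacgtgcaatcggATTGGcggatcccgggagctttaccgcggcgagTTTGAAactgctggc
Cdc20: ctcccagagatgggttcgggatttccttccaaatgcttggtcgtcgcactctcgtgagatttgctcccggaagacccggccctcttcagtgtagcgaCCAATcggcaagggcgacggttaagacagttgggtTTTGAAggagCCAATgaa
Cenpa: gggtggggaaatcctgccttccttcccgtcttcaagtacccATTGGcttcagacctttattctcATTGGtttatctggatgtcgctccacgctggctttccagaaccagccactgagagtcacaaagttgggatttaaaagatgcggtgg
Wee2: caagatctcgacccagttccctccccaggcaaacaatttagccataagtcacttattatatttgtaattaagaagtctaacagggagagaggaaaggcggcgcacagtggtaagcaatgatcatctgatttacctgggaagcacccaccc

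Cdk1 held 2 CHR letters and 2 CCAAT boxes in this stretch and Cdc20 held 1 CHR and 2 CCAAT boxes, while Ccnb1 and Cenpa held 2 CCAAT boxes each and no CHR. The Wee2 stretch held neither. In the whole window of 300 bases per promoter (250 before and 50 after the start), 34 of the 44 members had an entry in the table. Of these, 23 (67.6%) held a CHR, against 21.7% of all 27025 genes, and 26 (76.5%) held a CCAAT box, against 41.1% of all genes. Both motifs stood together in 21 members (61.8%), against 8.61% of all genes. Members not called in KO arrest against control embryos held both too, among them Bub1, Ccnb2, Kif11 and Plk1. Whether the motifs go with the differences was not tested. In this wider window Wee2 held 2 CCAAT boxes and Cenpa held 1 CHR, which lie outside the stretches shown. These are matches of letters in a window and not measured binding.

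The next comparison asked how knockout embryos without the word arrest differed from the same control libraries. It shares those 2 controls with the comparison above, so likeness between the results is no separate evidence. Of the 44 genes, 1 was called higher, against 4.86% of all genes, and 1 was called lower, against 1.5% of all genes. Positive differences were found for 33 of the 44 members, against 60.8% of all genes, and the median log2 difference was 0.75 for the members and 0.31 for all genes. At an unadjusted p under 0.05 stood 20 members, against 22.5% of all genes.

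Wee2 was the gene that fell, with 30.1, 46.6 and 38.8 FPKM in KO embryos against 308 and 270.4 FPKM in control embryos (log2 -2.90 ± 0.59, adjusted p = 0.0217, limma). Spc25 was the gene that rose, with 341, 385 and 367 FPKM in KO embryos against 147 and 167 FPKM in control embryos (log2 1.21 ± 0.32, adjusted p = 0.0495, limma). Neither pair of ranges overlapped. Ccnb1 had 297, 239 and 353 FPKM in KO embryos, against 54.2 and 177 FPKM in control embryos, and did not pass (log2 1.57 ± 0.51, adjusted p = 0.0952, limma). Cdk1 had 45.8, 45.7 and 59.1 FPKM in KO embryos against 16.1 and 19.3 FPKM in control embryos (adjusted p = 0.0647, limma). Cdca8, the gene for the passenger protein borealin, had 330.0, 276 and 294 FPKM in KO embryos against 137 and 136 FPKM in control embryos (adjusted p = 0.0645, limma).

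Ect2, the exchange factor that starts the cleavage furrow, had 41.8, 57.8 and 37.5 FPKM in KO embryos against 16.7 and 13.2 FPKM in control embryos (adjusted p = 0.0617, limma). Most roles held differences of both signs, the lowest log2 median being -0.34, for the CDK1 phosphatases and kinases. All 6 motor and midzone genes and all 3 of the Polo and Aurora A group had positive differences, though none was called. Their log2 medians were 0.79 and 1.23, against 0.31 for all genes. Mad2l1, at 277, 256 and 401 FPKM in KO embryos against 528 and 653 FPKM in control embryos, lay on the other side, with an adjusted p of 0.147 (limma). The count rested on single libraries. It was 0 without any 1 of the KO embryo libraries. Of all genes, only 88, 270 and 87 were called without KO embryo 1, 2 and 3. With all libraries kept, 573 were called higher and 177 lower. Without control embryo 1 and without control embryo 2, the members' median log2 difference was 0.59 and 0.74. That of all genes was 0.02 and 0.74. Under median-of-ratios scaling the members' median was 0.13 and that of all genes -0.05. The 2 members called there, Wee2 and Mad2l1, were both lower. Of all 11503 genes, 252 were higher and 461 lower with that scaling.

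**Figure D2:**
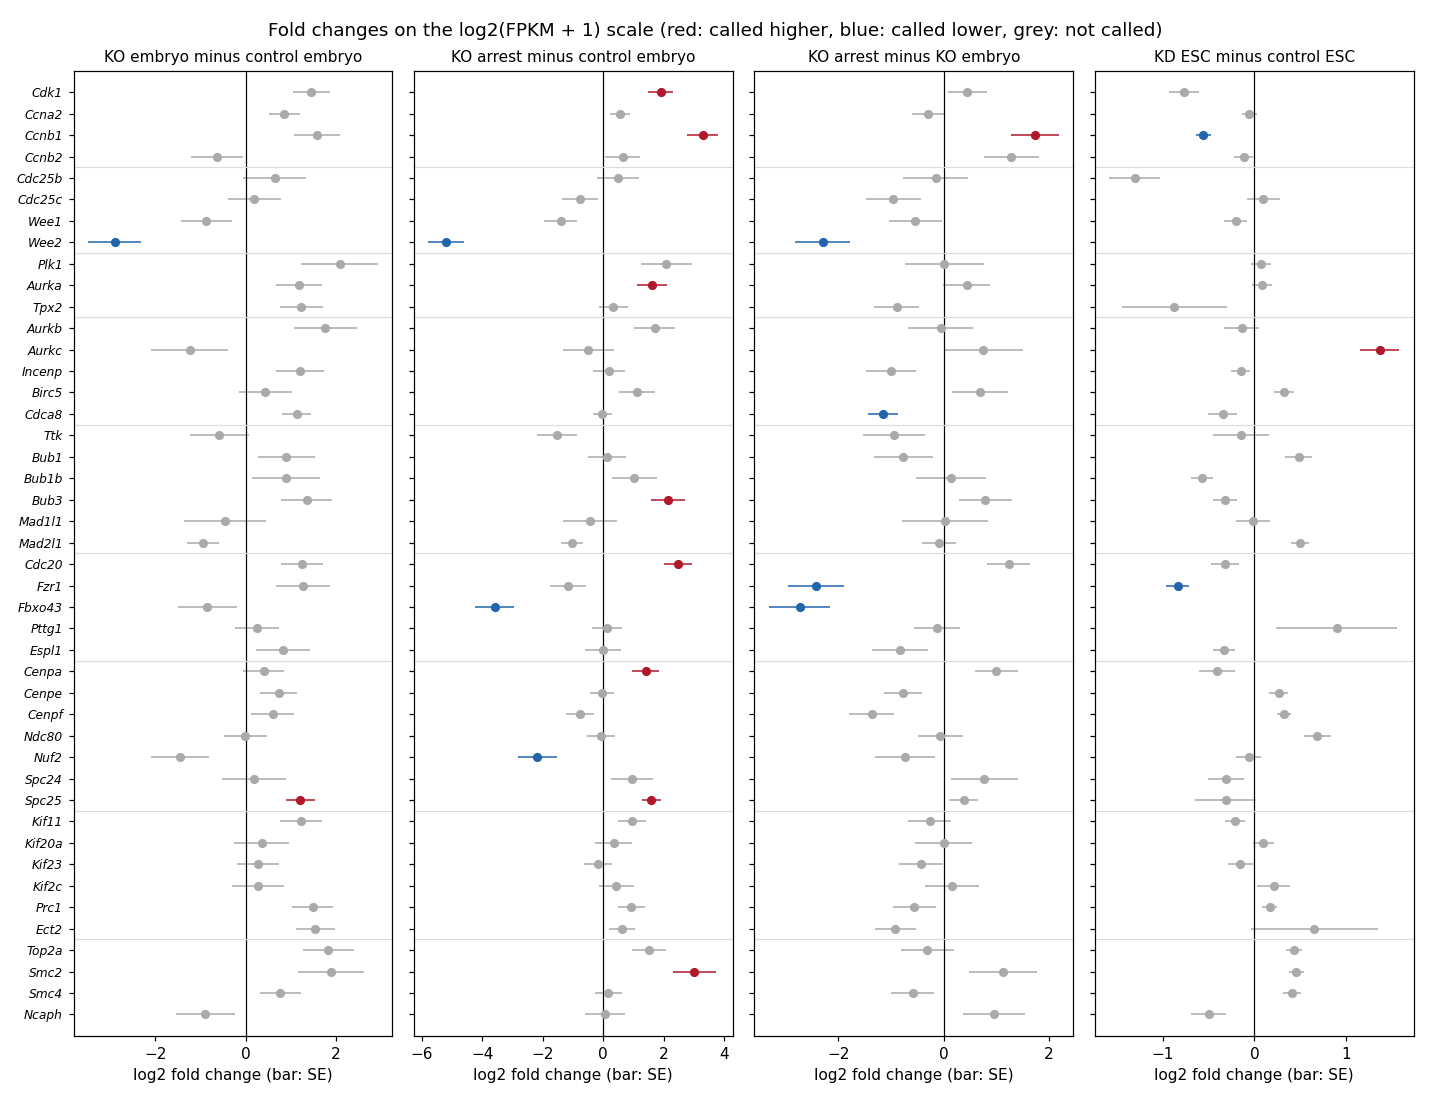
Log2 fold change with its SE for all 44 genes, grouped by role, in 4 comparisons, with genes called higher in red and called lower in blue. Wee2 is called lower in all 3 embryo comparisons, which share libraries. Ccnb1 is called higher in both comparisons of KO arrest and lower in KD ESC. Wee2 and Fbxo43 have no point in ESC because they were too low to be tested.

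Within the knockout embryos, KO arrest was set against KO embryo. These libraries were already compared with control embryos above, so likeness to those results is no separate evidence. Here 1 gene was called higher, against 4.93% of all genes, and 4 were called lower, against 3.65% of all genes. The median log2 difference was -0.14 for the members and 0.07 for all genes. Ccnb1 was the gene that rose, with 654, 1051 and 1347 FPKM in KO arrest against 297, 239 and 353 FPKM in KO embryos (log2 1.73 ± 0.45, adjusted p = 0.041, limma). The 2 groups of 3 libraries did not overlap.

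The APC/C activator of mitotic exit moved in the opposite sense. Fzr1 had 6.85, 3.83 and 8.25 FPKM in KO arrest against 40.8, 27.2 and 45.3 FPKM in KO embryos, and the KO embryo mean was 5.98 times the KO arrest mean (log2 -2.43 ± 0.53, adjusted p = 0.0214, limma). Fbxo43 fell with it, to 2.14, 1.06 and 0.387 FPKM in KO arrest against 14.4, 13.9 and 10.6 FPKM in KO embryos (log2 -2.74 ± 0.58, adjusted p = 0.0196, limma). Wee2 was lower in KO arrest than in KO embryos (log2 -2.30 ± 0.53, adjusted p = 0.0253, limma). Cdca8 had 140.5, 134 and 127 FPKM in KO arrest against 330.0, 276 and 294 FPKM in KO embryos (log2 -1.15 ± 0.29, adjusted p = 0.0335, limma). All 4 sets of values were apart. Against control embryos, Cdca8 differed by -0.03 ± 0.32 in KO arrest and 1.12 ± 0.32 in KO embryos on the log2 scale. Cdc20, at 108, 140.0 and 138 FPKM in KO arrest against 67.6, 43.8 and 51.5 FPKM in KO embryos, had an adjusted p of 0.089 (limma).

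These calls needed nearly all libraries. No member was called without KO arrest 2, KO arrest 3 or any 1 of the KO embryo libraries, whereas 4 were called without KO arrest 1. Of all genes, 742, 373 and 335 were called without KO arrest 1, 2 and 3. Without KO embryo 1, 2 and 3 they were 368, 285 and 393. With all libraries kept, 581 were called higher and 431 lower. With TPM and with quantile normalization, 0 members were higher and 5 lower in KO arrest, Ccnb1 no longer being called. Of all genes, 250 were higher and 611 lower with TPM, and 562 and 630 with quantile normalization.

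Markers of other cells moved with these groups. The 9 blood markers found summed to 0 to 0.743 FPKM in KO arrest, where 8 or 9 of them were at 0 in each library, among them Ptprc, S100a8, S100a9 and Lyz2. Their sum was 225 to 339 FPKM in KO embryos and 64.4 and 132 FPKM in control embryos, led by S100a9. The 10 fibroblast markers summed to 0.298 to 3.28 FPKM in KO arrest, with Col1a2, Col3a1, Dcn and Lum at 0, and to 64.6 to 101 FPKM in KO embryos and 18.5 and 74.2 FPKM in control embryos.

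Genes of the oocyte and early embryo moved further. The 11 markers of that list, led by Omt2a and Omt2b, summed to 939.7 to 1576 FPKM in KO arrest and 12268 to 18186 FPKM in KO embryos, against 38536 and 53635 FPKM in control embryos. Their order across the embryo groups was that of Wee2. Pluripotency markers summed to 1387 to 1985 FPKM in KO arrest, 1699 to 3022 FPKM in KO embryos and 671 and 733 FPKM in control embryos, most of it from Dppa5a, whereas Sox2 and Nanog were at most 14.1 FPKM in any of them. The 10 cumulus and granulosa cell markers summed to 10.8 to 31.6 FPKM over all embryo libraries, with Fshr at 0. In ESC the pluripotency markers summed to 2331 and 2632 FPKM after knockdown and 3111 and 3053 FPKM in controls, and the early embryo markers to 4.22 to 29.5 FPKM. The part of these shifts in the results for the mitotic genes was not tested, and embryos at different points of development cannot be told apart from a change at one point. In such libraries a lower share of cells that hold a transcript and less of it per cell cannot be told apart either.

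Ratios of paired genes within a library do not depend on how the library was scaled, apart from the added 1 FPKM. The ratio of Cdc20 to Fzr1, the successive APC/C activators, averaged 4.19 ± 0.59 on the log2 scale in KO arrest and 0.52 ± 0.29 in KO embryos (SD, n = 3 each), against 0.54 ± 0.19 in control embryos (n = 2). It was 3.79, 4.87 and 3.91 in the KO arrest libraries and at most 0.715 in any other embryo library, which is a 12.5-fold difference from control embryos and a 12.7-fold difference from KO embryos. The smallest p that an exact two-sided permutation test allows is 0.2 for 3 libraries against 2 and 0.1 for 3 against 3, and both comparisons reached it. For 2 against 2 libraries of ESC it is 0.333. Adjusted over 24 tests of 6 pairs in 4 comparisons, no p was under 0.48.

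The egg kinase lost ground to the somatic one in a graded way. The log2 ratio of Wee2 to Wee1 averaged 0.08 ± 0.67 in KO arrest, 1.84 ± 0.45 in KO embryos and 3.86 ± 0.53 in control embryos, and no groups overlapped. The ratio of Ccnb1 to Ccnb2 averaged 5.18 ± 0.38 in KO arrest and 4.74 ± 0.42 in KO embryos, which overlapped, against 2.54 ± 0.99 in control embryos, which lay below both. Fbxo43 relative to its somatic paralog Fbxo5, which is not one of the 44, averaged -4.37 ± 1.48 in KO arrest, -2.05 ± 0.60 in KO embryos and -2.41 ± 1.01 in control embryos. Only KO arrest and KO embryo were apart. Fbxo5 had 25.9, 32.5 and 87.3 FPKM in KO arrest, 45.0, 97.6 and 40.5 FPKM in KO embryos and 127 and 137 FPKM in control embryos.

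The Aurora paralogs gave the remaining separation. The log2 ratio of Aurkc to Aurkb averaged -1.74 ± 1.53 in KO arrest and -2.56 ± 0.68 in KO embryos, against 0.44 ± 0.01 in control embryos. Aurkb, the somatic passenger kinase, had 7.86, 40.0 and 31.9 FPKM in KO arrest and 34.1, 18.3 and 18.8 FPKM in KO embryos, against 4.36 and 8.18 FPKM in control embryos. Aurkc, its germ cell and early embryo paralog, had 4.45, 2.64 and 15.03 FPKM in KO arrest and 8.59, 1.07 and 2.33 FPKM in KO embryos, against 6.25 and 11.6 FPKM in control embryos. Neither gene was called on its own. The ratio of Cdc25b to Cdc25c overlapped in all 3 embryo comparisons, with Cdc25b at 2.39, 5.26 and 2.76 FPKM and Cdc25c at 16.6, 16.8 and 26.2 FPKM in KO embryos.

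**Figure D3:**
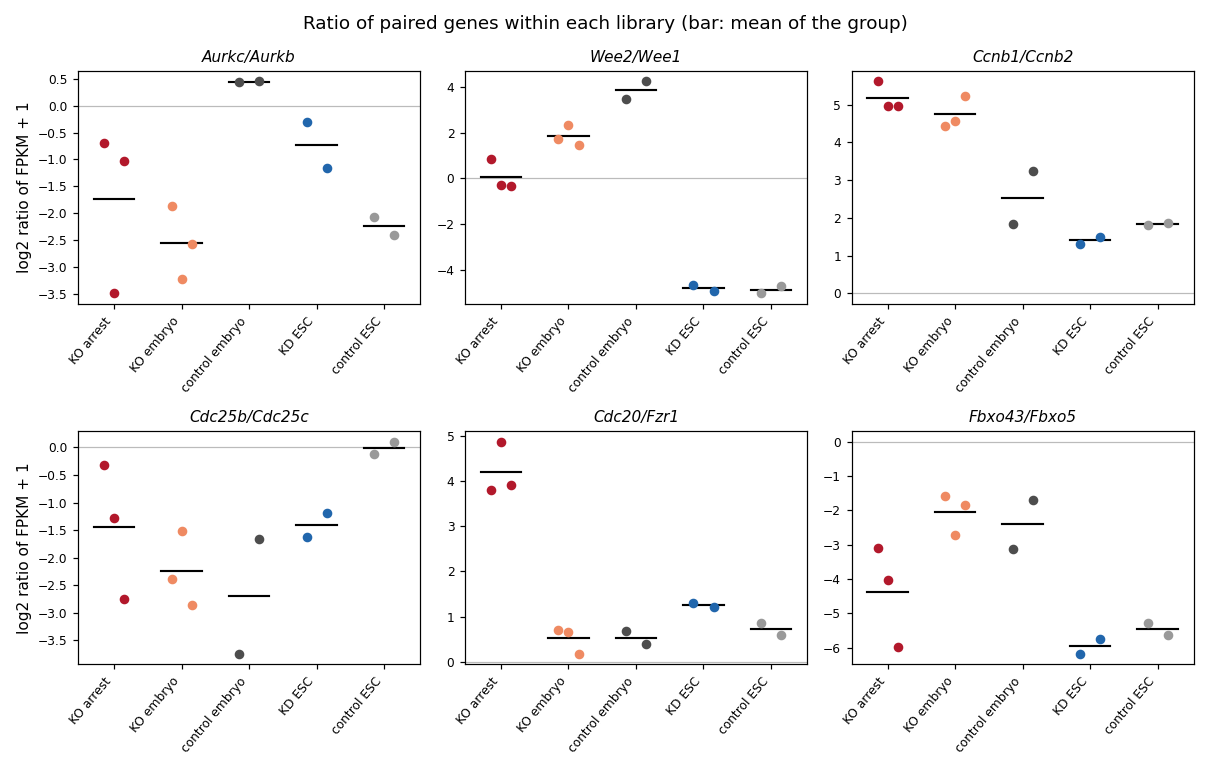
Log2 ratio of FPKM + 1 for 6 pairs of genes, with 1 point per library and a bar at the group mean. Cdc20 over Fzr1 is 3.79 or more in the KO arrest libraries and 1.29 or less in all others, and among the embryo groups Wee2 over Wee1 is lowest in KO arrest and highest in control embryos, all above the ESC libraries.

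Knockdown of Dcaf11 in ESC was compared with control ESC. Of the 42 members tested, 1 was called higher, against 2.59% of all genes, and 2 were called lower, against 3.64% of all genes. The median log2 difference was -0.09 for the members and -0.09 for all 12264 genes, and Wee2 and Fbxo43 were too low to be tested. Ccnb1 had 53.1 and 56.3 FPKM in KD ESC against 81.3 and 80.4 FPKM in control ESC (log2 -0.56 ± 0.08, adjusted p = 0.0405, limma). Fzr1 had 14.3 and 16.9 FPKM in KD ESC against 29.5 and 27.6 FPKM in control ESC (log2 -0.84 ± 0.13, adjusted p = 0.0424, limma). Both fell and neither overlapped its control.

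Aurkc was the gene that rose, with 10.4 and 7.79 FPKM in KD ESC against 3.32 and 2.50 FPKM in control ESC (log2 1.37 ± 0.21, adjusted p = 0.0449, limma). Aurkb stayed within its spread, at 13.1 and 18.7 FPKM in KD ESC against 17.2 and 17.5 FPKM in control ESC, and the log2 ratio of Aurkc to Aurkb averaged -0.73 ± 0.61 in KD ESC against -2.24 ± 0.23 in control ESC. Cdk1 had 11.05 and 14.7 FPKM in KD ESC against 22.9 and 22.0 FPKM in control ESC (adjusted p = 0.0675, limma), and Cdc25b had 1.28 and 2.67 FPKM in KD ESC against 6.26 and 6.05 FPKM in control ESC (adjusted p = 0.0668, limma). None of the 3 calls held with TPM or without a filter on low values, where no member was called, nor without either control ESC library. Of all genes, 431 were called with TPM and 313 without a filter. In the deposited FPKM 318 were higher and 446 lower. Without KD ESC 1 only Tpx2 was called, and without KD ESC 2 the genes called lower were Cdk1, Ccnb1, Cdc25b, Fzr1 and Cenpa.

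Whether the KO embryo effect differed from the KD ESC effect was tested as an interaction over all 12 libraries. The strain, the cell type and the kind of perturbation differ together between these effects and cannot be told apart. In that test 2 members were called higher, against 2.06% of all genes, and 0 lower, against 0.623% of all genes. At an unadjusted p under 0.05 (limma) stood 16 of the 44 members, against 18.3% of all genes. Cdk1 gave a log2 difference of effects of 2.22 ± 0.45 (adjusted p = 0.0352, limma), being 1.45 higher in KO embryos and 0.77 lower in KD ESC on that scale. Cdca8 gave 1.47 ± 0.32 (adjusted p = 0.0426, limma). Both had positive differences in KO embryos and negative ones in KD ESC. The KO embryo or KD ESC effect alone was called for neither gene. No member was called with median-of-ratios scaling, nor without KO arrest 2 or any 1 of the KO embryo libraries. Of all genes, 291 were called with median-of-ratios scaling and 271 without KO arrest 2. Without KO embryo 1, 2 and 3 they were 229, 347 and 238. With all libraries kept, 298 were called higher and 90 lower. Both calls also depended on each KD ESC and control ESC library. Without control embryo 1 and without control embryo 2, the members' median was 0.61 and 0.72. That of all genes was 0.08 and 0.61.

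The last comparison set control embryos against control ESC, which differ in strain as well as in cell type. Of the 44 genes, 10 were called higher in embryos, against 12.6% of all 14447 genes, and 10 were called lower, against 40.8% of all genes. The median log2 difference was -0.32 for the members and -1.01 for all genes. Spc25 had 147 and 167 FPKM in control embryos against 2.57 and 1.54 FPKM in control ESC (log2 5.71 ± 0.31, adjusted p = 2.78e-06, limma), while its partner Spc24, at 18.0 and 3.68 FPKM in control embryos against 17.6 and 21.1 FPKM in control ESC, was not called. Wee2 had 308 and 270.4 FPKM in control embryos and was listed at 0 and 0.193 FPKM in control ESC. Fbxo43 had 13.6 and 41.6 FPKM in control embryos and was listed at 0.164 and 0 FPKM in control ESC.

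Mad2l1 had 528 and 653 FPKM in control embryos against 52.6 and 48.5 FPKM in control ESC (log2 3.51 ± 0.29, adjusted p = 1.3e-05, limma), and Pttg1 had 155 and 234 FPKM in control embryos against 3.69 and 9.44 FPKM in control ESC (log2 4.77 ± 0.64, adjusted p = 0.000197, limma). Birc5, Cdca8, Cenpe, Ndc80 and Kif23 were also called higher in embryos. With each of the 12 libraries left out in turn, Cdca8 kept its call in all 12, Cenpe in 10, Ndc80 in 9, Kif23 in 7 and Birc5 in 2. Other checkpoint genes ran the other way. Bub1b was listed at 0 and 3.43 FPKM in control embryos against 25.6 and 28.3 FPKM in control ESC, and Bub3 was called lower as well, except with median-of-ratios scaling and without control embryo 1 or either control ESC library. Cdc20 was called lower with a log2 difference of -1.10, close to the -1.01 of all genes, and kept that call under 3 of 8 other settings and with 4 of 12 libraries left out in turn. Espl1, the gene for separase, had 3.04 and 2.20 FPKM in control embryos against 19.99 and 19.3 FPKM in control ESC (log2 -2.52 ± 0.38, adjusted p = 0.000408, limma), opposite to the securin gene Pttg1. Smc2, Top2a and Ncaph, 3 of the 4 condensation genes, were called lower in embryos, as were Plk1, Kif11 and Kif20a. Of the 8 other settings, Smc2 and Plk1 kept that call in 8, Top2a in 7, Kif11 and Kif20a in 6 and Ncaph in 4. Kif11 differed by -1.30 on the log2 scale, against the -1.01 of all genes. With median-of-ratios scaling 17 members were higher and 4 lower in embryos, and with quantile normalization 15 and 7. The median of all genes moved by 0.59 and 0.93. Of all genes, 2650 were higher and 4373 lower with median-of-ratios scaling, and 2964 and 3528 with quantile normalization. In the deposited FPKM 1820 of all 14447 genes were higher and 5901 lower. Without control ESC 1 or control ESC 2, 13 and 12 members were called.

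**Figure D4:**
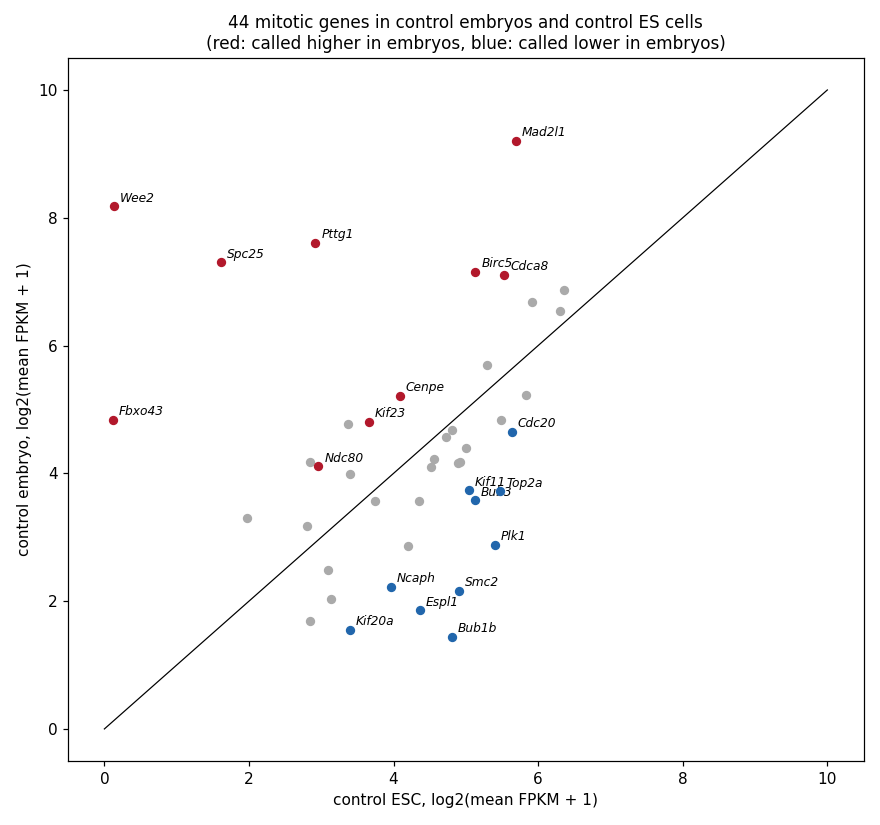
Mean level of the 44 genes in control embryos against control ESC, each as log2(mean FPKM + 1), with the line of equal level. Wee2, Fbxo43 and Spc25 lie far above the line, and Bub1b, Espl1 and Smc2 lie far below it.

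Other cell cycle genes were taken as lists by function, and their counts, computed in the deposited FPKM alone, describe the lists without a test. In KO arrest against control embryos, 16.4% of all genes were called higher and 8.87% lower. Of a list of 17 APC/C genes, 6 were higher and 0 were lower. That list holds APC/C subunits, E2 enzymes and Fbxo5, the paralog of the inhibitor gene Fbxo43. Ube2c, the E2 enzyme that starts ubiquitin chains for the APC/C, had 456, 633 and 817 FPKM in KO arrest against 26.6 and 117 FPKM in control embryos (log2 3.44 ± 0.56, adjusted p = 0.00206, limma), and Anapc11, the catalytic subunit, differed by 4.04 ± 0.82. Of 37 other kinetochore and centromere genes, 5 were higher, led by Trip13 (3.93 ± 0.64), an ATPase that remodels MAD2, and Mad2l1bp (2.60 ± 0.57), its adaptor, and 4 were lower, led by Mis12 and Cenpn, which is near the share of all genes in both directions. Among 20 cohesin and condensin genes 0 were higher and 3 lower, led by the cohesin release factor gene Wapal (-2.09 ± 0.37) and Esco1 (-1.68 ± 0.40).

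The remaining lists are read against the same shares of all genes, 16.4% higher and 8.87% lower. In KO arrest against control embryos, 4 of 19 genes of the G1 and S phase list were higher, led by Ccnh and by Cdkn1a, the gene for the CDK inhibitor p21, and 1 was lower, Rb1 (-2.70 ± 0.59). Cdkn1a had 150.2, 173 and 323 FPKM in KO arrest, against 24.3, 4.69 and 6.55 FPKM in KO embryos and 13.6 and 30.7 FPKM in control embryos. It was called in both comparisons (log2 4.31 ± 0.60, adjusted p = 0.00419 against KO embryos, and log2 3.25 ± 0.67, adjusted p = 0.00679 against control embryos, limma). Of 21 mitotic entry and exit regulators 4 were higher, led by Ppp1ca and Cks2, and 1 was lower, the DNA damage checkpoint kinase gene Chek1 (-2.74 ± 0.46). Of 20 transcription factors of the cell cycle, 5 were higher, led by Nfyb (3.73 ± 0.48), a subunit of the factor that binds CCAAT boxes, and Lin52, and 3 were lower, led by E2f5 (-3.52 ± 0.40) and E2f1. Of 25 other spindle and cytokinesis genes, 2 were higher (Kif18b and Tacc3) and 2 lower (Kif2a and Plk4).

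In KO arrest against KO embryos, where 4.93% of all genes were called higher and 3.65% lower, Cdkn1a and Cdk4 were called higher, and the genes called lower were led by Apitd1 and Mis12 at the kinetochore, Wapal and Cdca5 for cohesin, Kif2a and Kif18a for the spindle, and E2f5 and E2f1. In KO embryos against control embryos, where 4.86% of all genes were called higher and 1.5% lower, 3 of 37 kinetochore genes were higher and 1 lower, among them Trip13 (3.16 ± 0.64) and Stra13 (-1.96 ± 0.43), and Lin52, Nfyb, Ccnh and Ppp2ca were higher. The lists of cohesin, of the APC/C and of the spindle held 0 called genes there. In KD ESC against control ESC, where 2.59% of all genes were called higher and 3.64% lower, 5 of 19 G1 and S phase genes were lower and 0 higher, led by the D-type cyclins Ccnd2 (-1.32 ± 0.14, adjusted p = 0.0312, limma) and Ccnd3 (-0.78 ± 0.09, adjusted p = 0.0338, limma). Of 19 mitotic entry and exit regulators in ESC, 1 was higher (Ppp2ca) and 3 were lower, led by Ppp2r2a and Ppp1ca. These list counts were not recomputed under other settings, and the calls of the members in ESC were lost with TPM, without a filter on low values and without either control ESC library. In control embryos against control ESC, where 12.6% of all genes were called higher and 40.8% lower, 14 of 38 other kinetochore genes were higher, led by Apitd1 and Mis12, and 6 were lower, led by Cenpb and Trip13.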

How the data were processed

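RNA was measured by Smart-seq2 in 12 libraries (8 of embryos, 4 of ES cells), grouped by genotype and title as the labels give them. The deposited files list FPKM, TPM and coverage per gene. The submitters' processing notes name STAR (0.6.0), StringTie, DESeq2 and mm9. The part each tool played and the annotation used are not given in the sources. The deposited coverage divided by FPKM gave a relative depth, as a signal and not as reads, so the number of reads is unknown and no counting interval is given. FPKM values deposited by the authors were summed per symbol, and unnamed rows (0.549% to 1.19% of FPKM) were left out. TPM values deposited by the authors served as an alternative scaling.

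Genes that reached 1 FPKM in 2 or more libraries were tested with limma 3.58.1 (R 4.3.3, trend) on log2(FPKM + 1), so fold changes of low genes are understated, with Benjamini-Hochberg adjustment over all genes and a threshold of 0.05. The embryo fit held 8 libraries (5 residual degrees of freedom), the ESC fit 4 (2), and the comparisons across both 12 (7). Within-library ratios used exact permutation tests (scipy 1.17.1). The procedure was tested on simulated data. In those for limma, only well-expressed genes were changed, by more than most differences reported here, and depth and scaling did not differ. Smaller changes and low genes were thus not covered. Alternatives were a pseudocount of 0.1, other filters, other scalings, weights per library, a replicate block, other sets of libraries and each library left out. Strand is not stated, so overlapping genes are not separated. Reads of close copies such as Omt2a and Omt2b may be shared. The members and gene lists were chosen with earlier results of these data known. Values per library are given for members called in a comparison within embryos or ESC or in the interaction and for the ratio pairs, and from each other list at most 2 genes per direction are named, by smallest p.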

Additional observations from a re-analysis of the deposited data

Results flagged for a closer look

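The embryo knockout effect and the ESC knockdown effect differed for 2 members in the test of the difference itself. Cdk1 gave a log2 difference of effects of 2.22 and Cdca8 one of 1.47 (adjusted p = 0.0352 and 0.0426, limma). The Cdk1 call was kept under 5 of 8 other settings and with 4 of 12 libraries left out in turn. The Cdca8 call was kept under 2 of 8 other settings and with 3 of 12 libraries left out in turn.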

How the results depend on the processing

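Numbers below are members called, against the value in the deposited FPKM. They are not results about the members alone, since the number of all genes called moved with the setting too. For KO embryo minus control embryo that number was 82 with weights per library and 1709 when all 12 libraries were fitted together. For KO arrest minus KO embryo it was 456 with no filter and 2555 with weights per library. For KD ESC minus control ESC it was 313 with no filter and 967 with at least 5 FPKM. For KO embryo minus control embryo (2), the count was 0 with no filter on low values, 5 with at least 5 FPKM, 1 with TPM, 1 with quantile normalization, 0 with library weights, 9 when all 12 libraries were fitted together, 1 with only the 2 groups compared, and 0 to 11 with a library left out. For KO arrest minus control embryo (11) it was 7 with weights per library and 7 to 12 with a library left out. For KO arrest minus KO embryo (5) it was 3 with no filter, 10 with weights per library and 0 to 7 with a library left out. For KD ESC minus control ESC (3) it was 0 with no filter, 5 with at least 5 FPKM, 0 with TPM, 5 with median-of-ratios scaling, 0 when all 12 were fitted together and 0 to 5 with a library left out. For control embryo minus control ESC (20) it was 12 to 23 with a library left out, the lowest without control ESC 2. For the difference of the embryo and ESC effects (2) it was 1 with a pseudocount of 0.1, 0 with median-of-ratios scaling, 0 with weights per library and 0 to 11 with a library left out. The cause was not tested. Where a group kept 1 library, that library was assumed to vary like the others in the fit.

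With the replicate number as a block (replicate block), the counts were 0, 8, 2, 0, 19 and 0 in that order. Deviations of libraries with the same number correlated between -0.10 and 0.02. With 2 or 3 libraries a group these values cannot settle whether the numbers pair the libraries, since in groups of 2 the deviations mirror each other. The labels do not say whether they do. No called member changed sign under the alternatives run. Of 383 values of called members under other settings 83 lost the call, and of 420 with a library left out 120 did. Among the ratios, 46 of 48 values under other settings moved by less than the spread between replicates. Each group had 2 or 3 libraries, and the relative depth differs several-fold between libraries. Differences in genes near 1 FPKM in both groups may thus go undetected here.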
